A study of Mus musculus with 4 samples.

Results

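The transforming growth factor beta (TGF-beta) pathway was described here through 10 genes: the ligand gene Tgfb1, the receptor genes Tgfbr1, Tgfbr2 and Tgfbr3, the Smad genes Smad2, Smad3, Smad4 and Smad7, and the co-repressor genes Ski and Skil. They were chosen by gene symbol, with earlier results of these data known. All 10 were found among the 24421 genes of the deposited count table, and all 10 passed the filter on low counts that left 13296 genes for testing. Messenger RNA had been sequenced from LSK cells, the bone marrow fraction without lineage markers and with surface Sca-1 and Kit, in which hematopoietic stem cells and multipotent progenitors lie. The libraries were 2 from p53R248W/+ mice, which carry 1 allele of the tumour suppressor p53 with a missense change in its DNA-binding domain beside a normal allele, and 2 from wild-type (WT) mice. Mice of both genotypes were 13 to 15 months old and no treatment is named in the labels. The labels give no construct or driver for the mutant allele, no sex, and no statement that each library came from its own animal, so a p-value reflects how far these particular libraries differ, part of which may be technical. The comparison asks which transcripts differ in aged stem and progenitor cells when mutant p53 is present.

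TGF-beta is secreted in a latent form and, once released, binds the type II receptor, which recruits and phosphorylates the type I receptor. The type I receptor phosphorylates the receptor-regulated Smads, Smad2 and Smad3, and these enter the nucleus with the shared partner Smad4 to regulate transcription. Smad7 is an inhibitory Smad that the pathway itself induces, and Ski and Skil (the SnoN protein) bind the Smad complexes and repress their targets. In bone marrow, TGF-beta signalling is known for holding hematopoietic stem cells in quiescence.

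The libraries held 14820759 and 12111126 counts in p53R248W/+ and 14544290 and 14109906 counts in WT. Among the 10 genes the smallest count in any library was 223 reads (Smad7 in p53R248W/+ replicate 1) and the largest was 4200 reads (Skil in WT replicate 1). Counting error alone was therefore at most 6.70% of a value for Smad7 and at most 4.07% for the other 9 genes. Levels are given as CPM, in which each library's counts were put on 1 shared total after TMM correction, and compare libraries for 1 gene. The marker genes Kit and Ly6a, which encodes Sca-1, were at 910 to 1181 CPM and 40.2 to 82.8 CPM over the 4 libraries. Trp53 was at 245 to 361 CPM, and gene counts do not tell its alleles apart.

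No gene passed an adjusted p of 0.05 over the whole table in edgeR's quasi-likelihood test, which is 0% of the genes tested, and none of the 10 passed. With that test 780 genes over the table had an unadjusted p below 0.05. DESeq2 called 6 genes and limma-voom called 0, and none of the 10 was called by either. Because the 10 were chosen with earlier results of these data known, the shares and median below are description and were not tested as a set. Of the 10 genes, 9 had a log2 fold change below 0 (p53R248W/+ over WT), where 50% of all tested genes did. Their median log2 fold change was -0.32, beside -8.8e-05 over all tested genes, and leaving out WT replicate 1 gave -0.049, with 6 of the 10 below 0, while leaving out p53R248W/+ replicate 1 gave -0.16. Both p53R248W/+ libraries lay below both WT libraries for 5 of the 10, Tgfb1, Tgfbr3, Smad2, Smad3 and Smad4, where 16.6% of all tested genes did. Both lay above for Tgfbr1 alone, where 16.9% of all tested genes did. With 2 libraries against 2 there is no two-sided exact permutation p below 0.333 for a single gene.

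**Figure D1:**
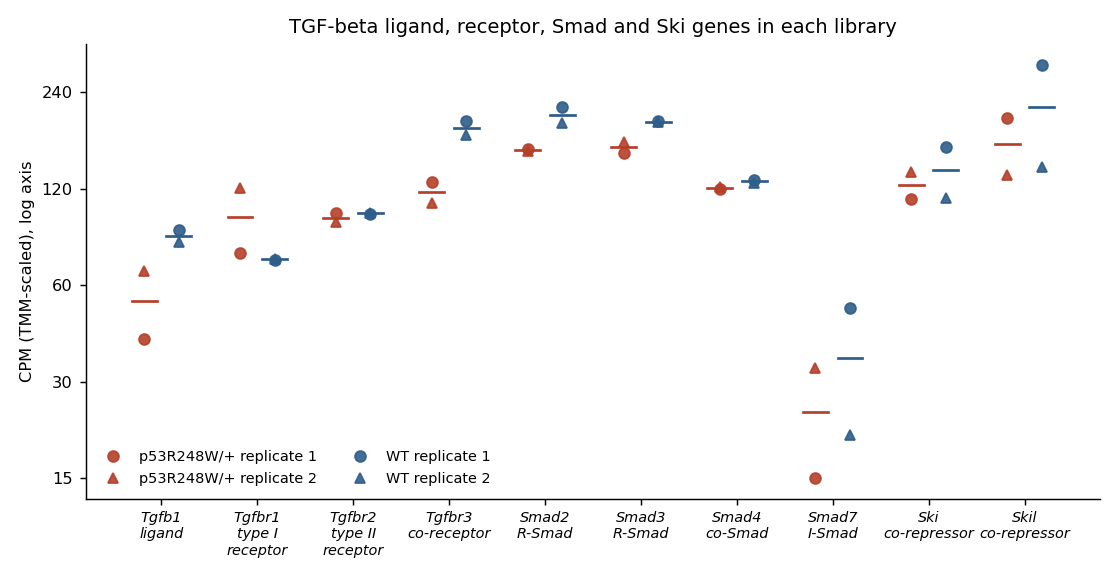
Level of each gene in CPM on a log axis, with the p53R248W/+ libraries left of the WT libraries, circles for replicate 1, triangles for replicate 2 and a bar at each genotype's mean. Tgfb1, Tgfbr3, Smad2, Smad3 and Smad4 have both p53R248W/+ points below both WT points, Tgfbr1 has them above, and the WT points of Smad7 and Skil are far apart.

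Tgfb1 encodes the ligand TGF-beta 1 (mm10 chromosome 7, 25687002 to 25704996, plus strand, 7 exon blocks). It was at 40.8 and 66.5 CPM in the p53R248W/+ libraries and at 89.3 and 81.9 CPM in the WT libraries. The genotypes did not overlap, and the p53R248W/+ libraries stood further apart than the WT libraries. The fitted log2 difference was -0.70 ± 0.31 (SE, 2 libraries in each genotype), or 1.62-fold lower in p53R248W/+, with a 95% interval from -1.34 to -0.052. Its unadjusted p was 0.0357 and its adjusted p 0.824 in edgeR's quasi-likelihood test, so it did not pass. Leaving out p53R248W/+ replicate 1 gave a log2 fold change of -0.36, and leaving out p53R248W/+ replicate 2 gave -1.07.

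Tgfbr1 encodes the type I receptor, the kinase that phosphorylates Smad2 and Smad3 (chromosome 4, 47353305 to 47414924, plus strand, 9 exon blocks). It was at 75.9 and 120.3 CPM in p53R248W/+ and at 72.1 and 72.3 CPM in WT. The WT libraries were nearly equal, p53R248W/+ replicate 1 lay just above them, and p53R248W/+ replicate 2 held most of the difference. The log2 fold change was 0.43 ± 0.28 (SE), with a 95% interval from -0.17 to 1.02 (adjusted p = 0.849, edgeR quasi-likelihood test), and leaving out p53R248W/+ replicate 1 or 2 gave 0.74 or 0.070. Tgfbr2 encodes the type II receptor, which binds the ligand first (chromosome 9, 116087695 to 116175363, minus strand, 8 exon blocks). It was at 101 and 94.3 CPM in p53R248W/+ and at 100.4 and 101 CPM in WT. These were among the closest values of the 10 genes, with a log2 fold change of -0.041 ± 0.24 (SE) and a 95% interval from -0.55 to 0.47. A change within those bounds is not excluded.

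Tgfbr3 encodes betaglycan, a co-receptor without kinase activity that presents ligand to the type II receptor (chromosome 5, 107106570 to 107289595, minus strand, 17 exon blocks). It was at 126 and 109 CPM in p53R248W/+ and at 196 and 177 CPM in WT. The gap between the genotypes was wider than the gap between the libraries of either one. Tgfbr3 had the smallest unadjusted p of the 10 genes, 0.00652, which ranked 78 among the 13296 tested genes. Its log2 fold change was -0.66 ± 0.21 (SE), or 1.58-fold lower in p53R248W/+, with a 95% interval from -1.11 to -0.21 and an adjusted p of 0.824 (edgeR quasi-likelihood test). With each library left out in turn the log2 fold change ran from -0.78 to -0.56. In GENCODE M21, 297 exon bases of Tgfbr3, or 4.91% of its exon length, are shared with Gm43422, an unconfirmed locus on the same strand that is not in the deposited table.

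Tgfb1 and Tgfbr3 were the only genes of the 10 at an unadjusted p under 0.05, both lower in p53R248W/+. Over all tested genes 2.86% were at an unadjusted p under 0.05 and lower, and 3.01% were at such a p and higher, a direction in which none of the 10 stood.

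The promoters of the ligand gene and of both kinase receptor genes are shown because these 3 genes differ in their values: Tgfb1 lay below WT, Tgfbr1 above it and Tgfbr2 level with it. None of the 3 passed over all genes, and a link between promoter sequence and level was not tested. Each sequence is the 250 bases before a transcription start in RefSeq (GRCm38.p6, the mm10 assembly), read 5′ to 3′ on the gene's strand, with capitals for each Smad box, the short motif bound by Smad3 and Smad4 (GTCT, or AGAC on the other strand). The windows are chr7:25686752-25687001 on the plus strand for Tgfb1, chr4:47352972-47353221 on the plus strand for Tgfbr1 (the first of its 2 RefSeq starts, 83 bases before the start in the deposited table) and chr9:116175364-116175613 on the minus strand for Tgfbr2. The bases just after the Tgfbr2 start were not found in a GENCODE M21 transcript of the gene, while those of the other windows were.
Tgfb1: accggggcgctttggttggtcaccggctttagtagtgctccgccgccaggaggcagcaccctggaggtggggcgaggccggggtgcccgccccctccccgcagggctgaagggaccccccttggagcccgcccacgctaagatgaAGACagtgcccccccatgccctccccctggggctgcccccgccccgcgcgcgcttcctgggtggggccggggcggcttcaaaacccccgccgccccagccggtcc
Tgfbr1: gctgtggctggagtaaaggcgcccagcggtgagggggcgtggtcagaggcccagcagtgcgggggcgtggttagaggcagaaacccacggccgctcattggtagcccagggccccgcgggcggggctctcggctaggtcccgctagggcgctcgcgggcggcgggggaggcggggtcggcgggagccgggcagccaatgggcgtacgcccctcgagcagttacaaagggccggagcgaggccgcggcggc
Tgfbr2: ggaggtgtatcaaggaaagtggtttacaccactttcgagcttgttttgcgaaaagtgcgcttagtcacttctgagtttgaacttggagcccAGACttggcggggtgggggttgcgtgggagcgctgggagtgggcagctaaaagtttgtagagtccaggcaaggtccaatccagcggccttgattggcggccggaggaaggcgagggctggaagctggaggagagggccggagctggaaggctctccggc

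The Tgfb1 window held 1 Smad box, the Tgfbr2 window held 1 and the printed Tgfbr1 window held 0, while 82.9% of 32851 RefSeq windows of the same length held at least 1. The GC box, a motif of Sp1-type factors (GGGCGG, or CCGCCC on the other strand), occurred 5 times in the Tgfb1 window, 2 times in the Tgfbr1 window and 0 times in the Tgfbr2 window, against at least once in 32.7% of windows. The AP-1 motif (TGANTCA, its own reverse complement) occurred in none of the 3, against 6.75% of windows. A p53 half-site, searched on both strands by its consensus, occurred once in the Tgfbr2 window and in neither of the others, against 7.13% of windows. No motif overlapped another kind of motif in these windows. The window at the second RefSeq start of Tgfbr1 held 2 Smad boxes and 0 GC boxes, the reverse of the window printed. Windows for Smad3 and Ski, also in the RefSeq table, held 1 and 0 Smad boxes and 2 and 5 GC boxes. A letter match is a description and not a binding site.

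Smad2 and Smad3 encode the receptor-regulated Smads. Smad2 (chromosome 18, 76241701 to 76311747, plus strand, 12 exon blocks) was at 159.7 and 157 CPM in p53R248W/+ and at 216 and 193 CPM in WT. The p53R248W/+ libraries were nearly level and both lay below WT, with a log2 fold change of -0.37 ± 0.20 (SE), a 95% interval from -0.78 to 0.048 and an unadjusted p of 0.0794 in edgeR's quasi-likelihood test over all tested genes. Smad3 (chromosome 9, 63646767 to 63757994, minus strand, 9 exon blocks) was at 155 and 168 CPM in p53R248W/+ and at 195 and 194 CPM in WT. Its groups did not overlap either, with a log2 fold change of -0.27 ± 0.20 (SE) and a 95% interval from -0.68 to 0.15. Smad2 ran from -0.44 to -0.28 and Smad3 from -0.32 to -0.21 with each library left out in turn. Because the genotypes did not overlap, these fits could not turn the sign. Neither passed over all genes, at adjusted p of 0.825 for Smad2 and 0.872 for Smad3 in edgeR's quasi-likelihood test.

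Smad4 encodes the shared partner of the receptor-regulated Smads (chromosome 18, 73639013 to 73703741, minus strand, 12 exon blocks). It was at 119.9 and 122 CPM in p53R248W/+ and at 128 and 125 CPM in WT. The genotypes did not overlap, but the gap was about as small as the counting error, which was at most 2.60% per library. The log2 fold change was -0.071 ± 0.22 (SE), with a 95% interval from -0.54 to 0.40.

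Smad7, Ski and Skil restrain the pathway, and for all 3 the genotypes overlapped and WT replicate 1 was the highest library. WT replicate 1 was also the highest library for Tgfb1, Tgfbr3, Smad2, Smad3 and Smad4, so this was not particular to the 3 genes. Smad7, the inhibitory Smad (chromosome 18, 75367365 to 75395934, plus strand, 4 exon blocks), was at 15.0 and 33.1 CPM in p53R248W/+ and at 50.9 and 20.5 CPM in WT. Ski (chromosome 4, 155154075 to 155222535, minus strand, 7 exon blocks) was at 111 and 135 CPM in p53R248W/+ and at 162 and 112 CPM in WT. Skil (chromosome 3, 31095058 to 31122923, plus strand, 7 exon blocks) was at 199 and 132 CPM in p53R248W/+ and at 293 and 140.1 CPM in WT. The WT libraries differed by 2.49-fold for Smad7, 1.44-fold for Ski and 2.09-fold for Skil, replicate 1 over replicate 2, each a larger fold than the fitted 1.53, 1.12 and 1.30 between genotypes. The log2 fold changes were -0.61 ± 0.50 for Smad7, -0.16 ± 0.24 for Ski and -0.38 ± 0.30 for Skil (SE), with 95% intervals from -1.66 to 0.44, -0.67 to 0.35 and -1.01 to 0.26. Without WT replicate 1 all 3 turned, to 0.20, 0.13 and 0.25.

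**Figure D2:**
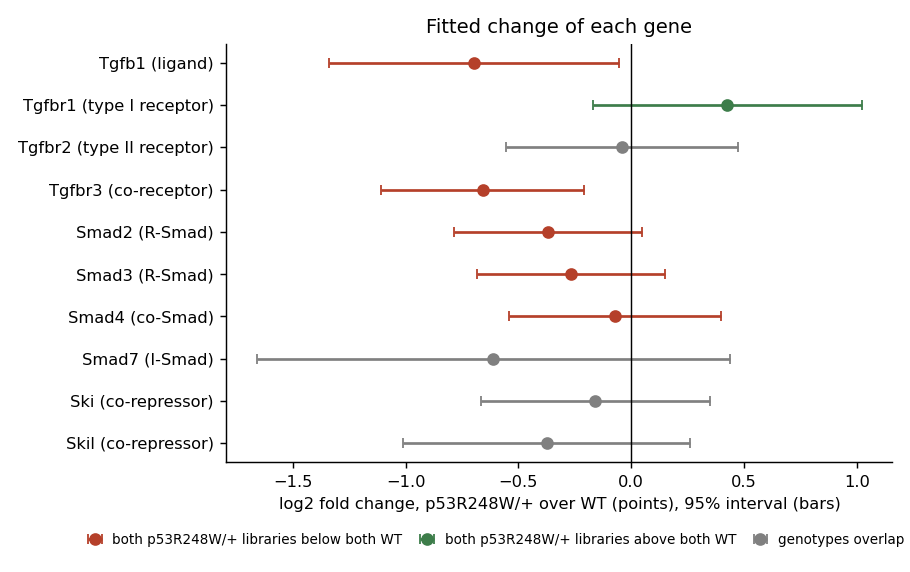
Fitted log2 fold change of each gene (p53R248W/+ over WT, points) with its 95% interval (bars) from edgeR's quasi-likelihood test, coloured by whether the libraries of the genotypes overlap. The intervals of Tgfb1 and Tgfbr3 lie below 0, at -1.34 to -0.052 and -1.11 to -0.21, and those of the other 8 genes include 0.

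**Figure D3:**
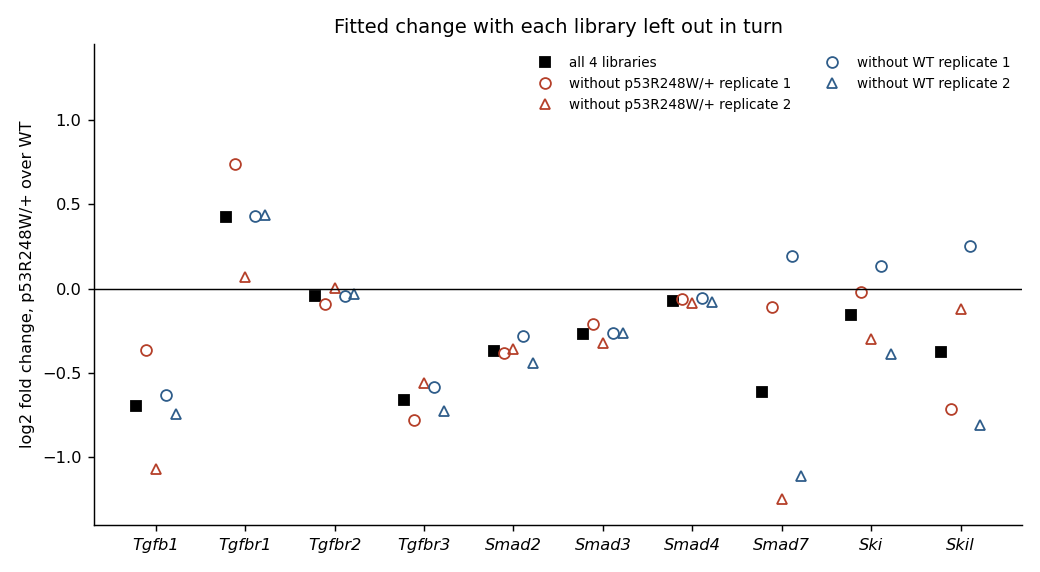
Fitted log2 fold change of each gene with all 4 libraries (squares) and with 1 library left out (red for a p53R248W/+ library left out, blue for a WT library, circles for replicate 1 and triangles for replicate 2). Smad7, Ski and Skil cross 0 without WT replicate 1, and Tgfbr2 barely crosses it without p53R248W/+ replicate 2. Tgfb1, Tgfbr3, Smad2, Smad3 and Smad4 stay below 0 in each fit, and Tgfbr1 stays above it, as their lack of overlap between genotypes requires.

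Markers of other marrow cells differed between libraries too, and their part in the results was not tested. The 8 megakaryocyte and platelet markers, a lineage known to hold much TGF-beta 1, summed to 87.8 and 58.6 CPM in p53R248W/+ and to 124 and 137 CPM in WT, the same order of genotypes as Tgfb1. Itga2b made up 51.7% of that sum, and without it the genotypes overlapped, at 54.1 and 30.9 CPM in p53R248W/+ and 39.4 and 72.2 CPM in WT. Gp6 was at 0 in all libraries, 2 of the 8 were lower in both p53R248W/+ libraries and 1 was higher in both. Of all tested genes 16.6% were lower in both and 16.9% higher in both. The 11 matched neutrophil and monocyte markers summed to 783 and 715 CPM in p53R248W/+ and to 1479 and 442 CPM in WT, with WT replicate 1 the highest library. Mpo, which early myeloid progenitors also express, made up 80.6% of that sum, and the other 10 summed to 156 and 171 CPM in p53R248W/+ and to 207 and 128 CPM in WT. The list was not of one direction. In WT replicate 1, 3 of its 11 genes were highest, as Tgfb1, Smad7, Ski, Skil and others of the 10 genes were. Another 6 were lowest there, among them the granule genes Ltf, Camp, Ngp, S100a8 and S100a9.

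The stem cell and sort markers summed to 4342 and 4017 CPM in p53R248W/+ and to 3288 and 3632 CPM in WT. The 8 B cell markers summed to 27.5 and 18.6 CPM in p53R248W/+ and to 7.04 and 11.3 CPM in WT, with Pax5 at 0 in all libraries. The 10 stromal and endothelial markers summed to 159.7 and 129 CPM in p53R248W/+ and to 87.1 and 81.0 CPM in WT. Pecam1, which stem cells share with endothelium, made up 71.3% of that sum, and the other 9 overlapped, at 55.1 and 28.8 CPM in p53R248W/+ and 16.7 and 30.3 CPM in WT. Of these, Col3a1, Dcn, Lum, Pdgfra and Cxcl12 were at 0 in all libraries. The erythroid markers summed to 11.1 to 21.5 CPM over the libraries with the 4 globin genes at 0 and the T and NK cell markers to 67.8 to 83.3 CPM with Cd3g at 0. The 8 mast cell, basophil and eosinophil markers summed to 373 to 412 CPM, of which Gata2, also a stem cell gene, made up 88.5%. The other 7 summed to 45.8 and 67.4 CPM in p53R248W/+ and to 34.9 and 30.9 CPM in WT. Of the 8 genes, 3 were higher in both p53R248W/+ libraries, where 16.9% of all tested genes were. Of these, 2 (Mcpt8 and Epx) were at an unadjusted p under 0.05 and an adjusted p of 0.824 in edgeR's quasi-likelihood test. Over all tested genes 3.01% were at such an unadjusted p and higher. Both had few reads: Mcpt8 had 42 and 160 in p53R248W/+ and 12 and 26 in WT, and Epx had 29 and 81 in p53R248W/+ and 2 and 10 in WT. In such bulk samples fewer cells of a type and less RNA per cell cannot be told apart.

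To compare genes with each other, CPM was divided by exon length, giving RPKM. By mean RPKM over the 4 libraries the order was Smad4 (37.1 RPKM), Smad3 (35.0), Tgfb1 (33.2), Skil (27.0), Tgfbr3 (25.1), Ski (23.8), Tgfbr2 (20.7), Smad2 (19.8), Tgfbr1 (15.0) and Smad7 (6.72). The range over libraries overlapped between each pair of neighbours in this order except the last, since Tgfbr1 did not go below 12.7 RPKM and Smad7 did not go above 11.5 RPKM. Of the 2 receptor-regulated Smads, Smad2 reached at most 23.6 RPKM, below the lowest Smad3 value of 30.5 RPKM. In CPM their means were close, at 181 for Smad2 and 178 for Smad3. The gap therefore rests on their exon lengths of 9142 and 5090 bases, and the transcript forms expressed were not examined. Per length, 85.9% of tested genes lay below Smad4 and 39.0% below Smad7.

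**Figure D4:**
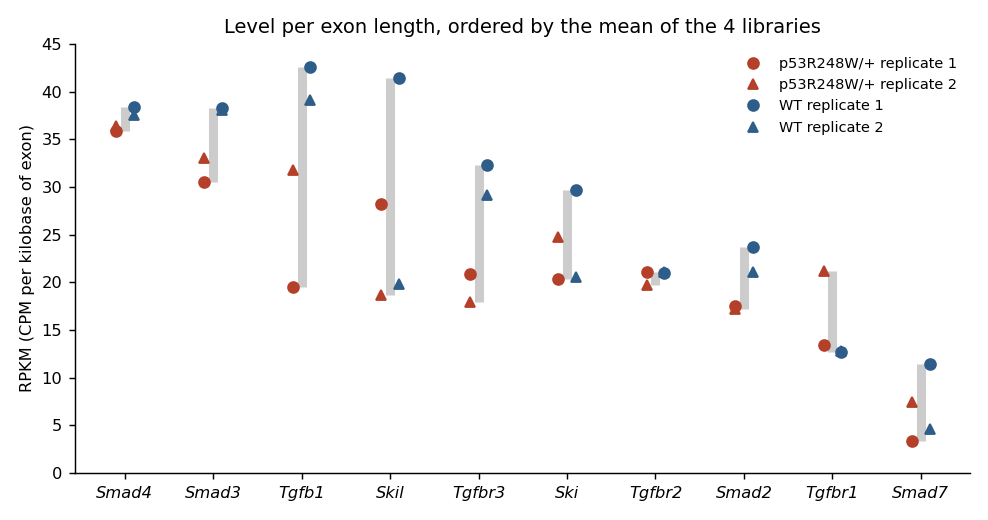
Level of each gene in RPKM, ordered by the mean of the 4 libraries, with p53R248W/+ points left of WT points and a grey bar over the range. Smad4 (35.9 to 38.4 RPKM) and Tgfbr2 (19.7 to 21.1 RPKM) have the narrowest ranges, and Tgfb1 (19.5 to 42.6 RPKM) and Skil (18.7 to 41.4 RPKM) the widest.

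Ratios of RPKM within a library do not depend on how libraries are scaled. The ratio of Tgfbr3 to Tgfbr2 was 0.990 and 0.911 in p53R248W/+ and 1.54 and 1.39 in WT, so the co-receptor transcript was level with or below the type II receptor transcript in p53R248W/+ and above it in WT. The ratio of Tgfbr1 to Tgfbr2 was 0.636 and 1.08 in p53R248W/+ and 0.607 and 0.606 in WT, with p53R248W/+ replicate 2 standing apart from the other 3 libraries. The ratio of Smad4 to Smad3 was 1.18 and 1.10 in p53R248W/+ and 1.00 and 0.986 in WT. The ratio of Smad2 to Smad3 overlapped, at 0.572 and 0.519 in p53R248W/+ and 0.618 and 0.553 in WT. Ski to Skil was 0.722 and 1.32 in p53R248W/+ and 0.715 and 1.04 in WT, which divides the libraries by replicate number and not by genotype.

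Replicates of 1 genotype lay closer for the 10 genes than for tested genes at large, which include genes with far fewer reads. Genes of like level were not compared, and 0.5 CPM was added before the log for all tested genes only. The median absolute log2 difference between the p53R248W/+ libraries was 0.25 for the 10 genes and 0.42 for all tested genes, and between the WT libraries it was 0.13 and 0.43. Within the 10, Smad7 was the widest in both genotypes, at 1.14 in p53R248W/+ and -1.31 in WT (log2 of replicate 2 over replicate 1), and the WT values of Tgfbr1, Tgfbr2 and Smad3 were within 0.01 of 0.

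The rest of the pathway was read through 4 lists, and no gene of any list passed over all genes. Of 13 genes for other ligands and for the storage and release of latent TGF-beta, 9 were tested, 5 had a log2 fold change below 0 and 4 above, and the median was -0.18, or 0.19 with WT replicate 2 left out. Nrros, which anchors latent TGF-beta 1 on the cell surface and was the most abundant of the list by CPM, was at 167 and 221 CPM in p53R248W/+ and at 223 and 214 CPM in WT. Ltbp1, a latent TGF-beta binding protein with the smallest p of the list, was at 0.674 and 1.98 CPM in p53R248W/+ and at 2.72 and 6.24 CPM in WT (log2 fold change -1.82 ± 1.07, SE). Tgfb3, the ligand paralogue, was named after its values were seen: it was at 8.96 and 5.36 CPM in p53R248W/+ and at 18.4 and 11.2 CPM in WT, below WT in both libraries like Tgfb1, with a log2 fold change of -1.01 ± 0.64 (SE). Per length Tgfb3 reached at most 5.43 RPKM, under the lowest Tgfb1 value of 19.5 RPKM, and Tgfb2, named likewise, had at most 5 counts in a library.

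Of 14 receptor and Smad genes of the bone morphogenetic protein (BMP) and activin branches, 11 were tested, 5 below 0 and 6 above, with a median of 0.080, or -0.061 with p53R248W/+ replicate 1 left out. Bmpr2, the BMP type II receptor and the most abundant of them by CPM, was at 549 and 507 CPM in p53R248W/+ and at 509 and 549 CPM in WT, with a 95% interval of the log2 fold change from -0.31 to 0.31. Acvr1b, an activin type I receptor with the smallest p of the list, was at 139 and 85.2 CPM in p53R248W/+ and at 98.7 and 72.2 CPM in WT, and its groups overlapped.

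Of 22 modulators of the pathway, 20 were tested, 13 below 0 and 7 above, with a median of -0.075, or 0.0076 without WT replicate 1. Usp9x, a deubiquitinase that acts on Smad4, was the most abundant by CPM, at 651 and 626 CPM in p53R248W/+ and at 638 and 662 CPM in WT. Rnf111, or Arkadia, a ubiquitin ligase that degrades Smad7, Ski and SnoN, had the smallest p of the list. It was at 168 and 180.2 CPM in p53R248W/+ and at 138 and 117 CPM in WT, so both p53R248W/+ libraries lay above both WT libraries, with a log2 fold change of 0.45 ± 0.21 (SE), an unadjusted p of 0.0502 and an adjusted p of 0.824 in edgeR's quasi-likelihood test.

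Of 16 genes known as TGF-beta targets in other cell types, 11 were tested, 8 below 0 and 3 above, with a median of -0.18, or -0.44 and -0.47 when WT replicate 1 or p53R248W/+ replicate 1 was left out. Klf10, a TGF-beta inducible zinc finger factor and the most abundant of the list by CPM, was at 149 and 132 CPM in p53R248W/+ and at 169.6 and 149 CPM in WT (log2 fold change -0.18 ± 0.21, SE). Cdkn1a, a cell cycle inhibitor that p53 also induces, had the smallest p of the list and lay at a log2 fold change of -1.81 ± 0.44 (SE). The other 2 at an unadjusted p under 0.05, named after their values were seen, were Bhlhe40 and Junb, a transcriptional repressor and an AP-1 subunit that many stimuli induce. Thus 3 of the 11 tested targets were at such a p and lower, where 2.86% of all tested genes were. Bhlhe40 was at 61.6 and 47.1 CPM in p53R248W/+ and at 127 and 95.8 CPM in WT. Junb was at 18.3 and 25.1 CPM in p53R248W/+ and at 65.7 and 29.2 CPM in WT. It was highest in WT replicate 1, as Klf10, Cdkn1a and Bhlhe40 also were. Of the 11 tested targets, 5 were lower in both p53R248W/+ libraries, where 16.6% of all tested genes were. In the other direction there were 0, against 16.9%. Id1, among the 5, had few reads, at 0 and 1.57 CPM in p53R248W/+ and 2.79 and 2.03 CPM in WT. Id3, not tested, was at 0.0674 and 0.165 CPM in p53R248W/+ and 3.21 and 0.420 CPM in WT. Further targets, also named after their values were seen, ran from low to moderate levels with overlapping genotypes. Cdkn1c was at 30.9 and 18.6 CPM in p53R248W/+ and at 8.08 and 27.9 CPM in WT. Tgfbi was at 7.41 and 9.82 CPM in p53R248W/+ and at 19.1 and 8.06 CPM in WT. Over the 4 libraries Fn1 was at 3.55 to 14.5 CPM, Id2 at 3.21 to 14.4 CPM and Pmepa1 at 0.209 to 1.61 CPM, and Ctgf had 0 counts in each.

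**Figure D5:**
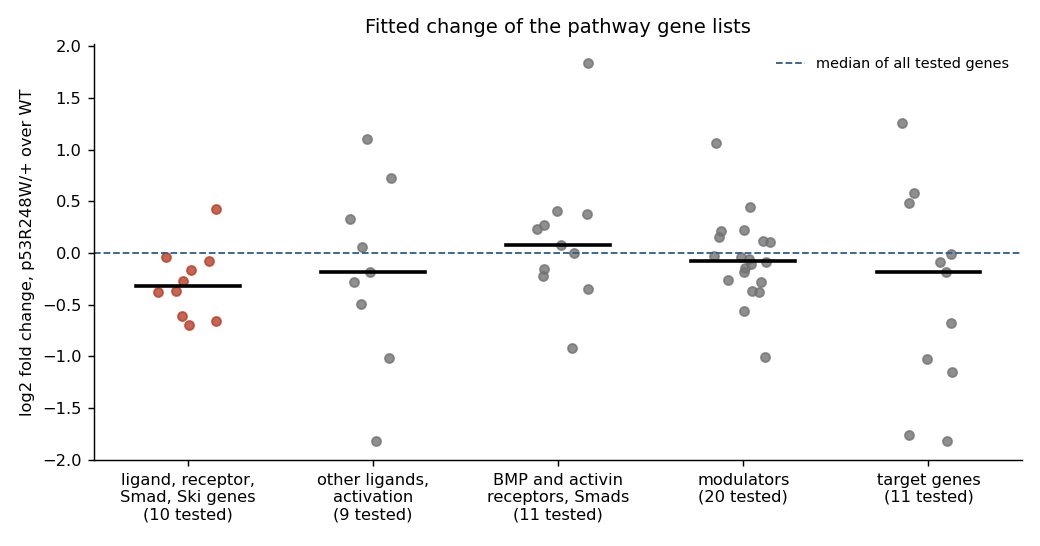
Log2 fold change (p53R248W/+ over WT) of each tested gene in the 10-gene set and in the 4 further lists, with a black bar at each list's median and a dashed line at the median of all tested genes. The medians are -0.32, -0.18, 0.080, -0.075 and -0.18 from left to right, and single genes spread on both sides of 0 in each list.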

How the data were processed

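The deposited table holds raw read counts per gene, made by the authors, with gene symbols, exon coordinates and exon length. The tools named in the submitters' processing notes are STAR 2.7.10a, featureCounts of Subread 2.0.3, FastQC 0.11.5 and edgeR 3.40.2, and the build is mm10. Strand setting and multi-mapping reads are not given in the sources used here. Columns were matched to samples by genotype and number.

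Genes were filtered with filterByExpr (minimum count 10, minimum total 15), scaled by TMM and compared by genotype with edgeR 4.0.16 (glmQLFit, robust, non-legacy; glmQLFTest; R 4.3.3) over all 4 libraries, with Benjamini-Hochberg adjustment at 0.05 over 13296 genes and a 95% interval from each SE. CPM uses TMM-scaled library totals, in which the 3-count floor was 0.202 to 0.248 CPM. RPKM uses the deposited exon length.

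The 10 genes and the lists were chosen with earlier results of these data known. Outside the 10, the most abundant gene and the gene with the smallest p of each list were named by rule, and pathway genes beyond these after their values were seen. All list symbols matched except Ly6g, which was not analysed here. Alternatives were DESeq2 1.42.0 and its size factors, total counts, limma-voom (limma 3.58.1), no filter, a stricter filter (mean of at least 5 CPM, with 1 CPM or more in 2 libraries), a replicate block, each library left out, and, added after the data were seen, edgeR's legacy method. Sequences are from RefSeq (GRCm38.p6), and overlaps were also read from GENCODE M21.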

Additional observations from a re-analysis of the deposited data

How the results depend on the processing

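DESeq2 called 6 genes over the table, against 0 in edgeR's quasi-likelihood test, and leaving out each library gave 0 to 1, with the lone library left in its genotype assumed to vary like the other group (1 without p53R248W/+ replicate 2). With a replicate block the count was 0 and the median of the 10 genes -0.30, and the block changed no call. The labels do not say that equal numbers mark a shared batch or animal, so the numbers were not taken to pair libraries. Deviations of same-numbered libraries correlated at 0.0049 over genes, a value over all genes that cannot tell whether single genes follow the number. Without single libraries the median of the 10 genes ran from -0.42 to -0.049, with 6 to 9 of the 10 below 0. The log2 fold change ran from -1.25 to 0.20 for Smad7, from -0.39 to 0.13 for Ski, from -0.81 to 0.25 for Skil and from -0.093 to 0.0027 for Tgfbr2, each reversing without 1 library. The other 6 genes kept their sign under every alternative run. These are the genes whose genotypes did not overlap, so leaving out 1 library could not turn their sign and adds nothing to that. None of the 10 was called under any alternative. Genes at an unadjusted p under 0.05 numbered 780 with all libraries, and 336 to 1083 with 1 left out. List medians ran from -0.34 to 0.19 for other ligands and activation, from -0.061 to 0.26 for BMP and activin genes, from -0.12 to 0.0076 for modulators and from -0.47 to -0.10 for targets. The ligand list was at 0.077 with limma-voom and 0.065 with the stricter filter, and the target list at -0.42 with the stricter filter, which tested 8 of its genes. The cause was not tested.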

Other observations

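Thbs1 encodes thrombospondin-1, a secreted protein known to release latent TGF-beta, and it was singled out after its values were seen. It was at 157.9 and 23.6 CPM in p53R248W/+ and at 81.9 and 5.54 CPM in WT. Replicate 1 was the higher library in both genotypes, by 14.8-fold in WT, and the log2 fold change of 1.10 ± 1.63 (SE) had a 95% interval from -4.74 to 6.94.

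The profiles nearest to the 3 genes with the most CPM were taken over the 4 libraries, as the root mean square difference of log2 CPM after each gene was centred on its own mean, among 10709 genes. Nearest to Skil were Epb4.1l4aos, Lrwd1 and Pld1, at differences of 0.038, 0.039 and 0.040. Nearest to Smad2 were Helz2, Ctse and Rfk, at 0.019, 0.020 and 0.021. Nearest to Smad3 were Mtmr4, Exoc4 and Ifitm3, at 0.015, 0.016 and 0.020. With 4 libraries such closeness is common: 25 genes lay within 0.1 of Skil, 288 within 0.1 of Smad2 and 442 within 0.1 of Smad3.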
